A study of Mus musculus with 105 samples.

Results

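TXΔXicCast and TXΔXicB6 are female mouse embryonic stem cell lines in which the choice of the inactivated X chromosome was fixed by a deletion, and their total expression was compared at day 4 of differentiation. The comparison rests on 6 of the 105 samples of the series, 3 bulk RNA-seq libraries of each line at day 4, and on all 52016 gene rows of the count table, without the 92 ERCC spike-in rows. Both lines derive from TX1072, a cross of C57BL/6 (B6) and CAST/EiJ (Cast) in which Rosa26 carries rtTA and the B6 copy of Xist a doxycycline-responsive promoter. No doxycycline treatment is named for these libraries. TXΔXicB6 (clone TxdXic_A1) lacks chrX:103182701-103955531 (mm10), with Xist, on the B6 chromosome, so that only its Cast X chromosome can be inactivated. TXΔXicCast (clone TxdXic_A6) lacks chrX:103182257-103955698 on the Cast chromosome, so that only its B6 X chromosome can be inactivated. Each line is a single clone, so that the inactivated X and any other difference between the clones cannot be told apart. Cells were differentiated for 4 days by removing 2i and LIF, which hold stem cells in the naive state, in serum medium on fibronectin. In bulk RNA, more cells of a type and more RNA per cell cannot be told apart.

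The deletions were cut with Cas9 and pairs of guides, a Nap1l2 guide on one side of the region and an Rnf12 guide on the other. The guides are shown because they define both lines, and each of the 4 pairs was transfected separately before the cells were pooled and clones picked, so which pair made which clone is not given in the sources used here. They are written 5′ to 3′ as designed.
Nap1l2_guide1: gtgcacactggcagaatcgct
Nap1l2_guide2: gaatggttaatgtgcttcgtc
Rnf12_guide1: gctgaatagggttgctctac
Rnf12_guide2: ggactaagtttggcggttga

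Mouse embryonic stem cells that leave the naive state pass through a formative, epiblast-like state and then turn to lineages of the embryo. On a serum-rich, adhesive surface they also flatten, assemble actin stress fibres and deposit matrix. In female cells the same days see Xist, a long noncoding RNA, coat 1 X chromosome and silence its genes, while the other X remains active. Genes on the X can act on the pace of differentiation while both copies are active, because several of them restrain the signals that drive it.

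Total counts at day 4 were 38698371, 33909351 and 23942422 in TXΔXicB6 (replicates 1, 2 and 3) and 52089996, 21539045 and 31405553 in TXΔXicCast. Mitochondrial genes held 1.59%, 2.12% and 1.30% of the counts in TXΔXicB6 and 1.68%, 1.86% and 1.74% in TXΔXicCast. Allele-specific counts matched the labels: of those on Xist, the deleted allele held 3 of B6 against 7096 of Cast in the first TXΔXicB6 library and 4 of Cast against 6458 of B6 in the first TXΔXicCast library. Over the other genes of the deleted region, the deleted allele held 0% in each TXΔXicB6 library and between 0.420% and 1.65% in the TXΔXicCast libraries. Levels are given below as CPM, counts relative to the library size after TMM scaling, and differences as log2 of TXΔXicCast over TXΔXicB6 with the standard error (SE). A gene was called at an adjusted p under 0.05 in edgeR's quasi-likelihood test, fitted to the 30 libraries of both lines over days 0 to 4.

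The lines differed at day 4 in 1165 of the 19885 genes tested, 798 higher and 367 lower in TXΔXicCast, with more calls upwards than downwards. Calls were 5.86% of all genes tested, 4.01% in the higher and 1.85% in the lower direction. Autosomal genes gave 687 higher and 352 lower of 19092 tested (5.44% in all), with a median difference over all of them of -0.01. X-linked genes outside the deleted region gave 110 higher and 14 lower of 740 (16.8% in all), with a median of 0.18 and 67.4% of them above 0. The differences were mostly small: the median was 0.73 among genes called higher and -0.63 among those called lower, and 218 and 60 of them passed a 2-fold difference. In 1111 of the 1165 genes the 3 libraries of one line did not overlap with those of the other, against 22.7% of all genes tested.

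Over the called genes TXΔXicCast replicate 3 stood apart from the other 5 libraries, and the number of calls depended on it. Over the autosomal genes called higher, the median position above the TXΔXicB6 mean was 0.62, 0.55 and 0.95 log2 units in TXΔXicCast replicates 1, 2 and 3, and over the genes called lower it was -0.48, -0.52 and -0.82. This library was the highest of the 6 in 658 of the 798 genes called higher and the lowest in 298 of the 367 called lower. These genes were called with this library in the test, so the choice of genes favours an extreme library. The Pearson correlation of its log2 CPM was 0.988 and 0.987 with the other TXΔXicCast libraries and between 0.979 and 0.982 with those of TXΔXicB6. TXΔXicB6 replicate 3 had 0.989 and 0.987 with its own line. Without TXΔXicCast replicate 3, 326 genes were called, 247 higher and 79 lower. All 1165 genes kept their direction, which was likely because the other 5 libraries had also entered their calls, and their median difference became 0.59 and -0.52. Leaving out TXΔXicB6 replicate 1, 2 or 3 gave 640, 742 and 766 calls. In all, 283 genes (24.3% of the calls) stayed called whichever of the 6 libraries was left out, 218 of them higher and 65 lower. Each replicate was differentiated on its own day, and with the replicate number as a block the count was 1772, 1095 higher and 677 lower. Described below with the values of all 6 libraries are mainly genes that remained called in each of the 6 fits, and the exceptions are named.

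The largest differences are ranked among called genes without overlap of the libraries of the lines and with a mean of at least 100 normalized counts. In this ranking the 12 largest autosomal increases were led by Acta2. Of these, 2, Nox4 and Prss23, lie in a chromosome 7 segment described below. Acta2 (chr19:34241090-34255590), the smooth muscle actin, stood at 26.8, 44.1 and 21.1 CPM in TXΔXicB6 and at 115, 111 and 190 CPM in TXΔXicCast. Its log2 difference was 2.17 ± 0.39 (SE, n = 3 against 3; edgeR adjusted p = 0.0011). Wnt6, a secreted Wnt ligand, had 4.18, 7.42 and 2.47 CPM in TXΔXicB6 and 13.7, 15.4 and 28.2 CPM in TXΔXicCast. It differed by 2.01 ± 0.36 (edgeR adjusted p = 0.00096), with replicate 3 again the highest. Wnt7a, another Wnt ligand, differed by 2.17 ± 0.37 (edgeR adjusted p = 0.0006) at low levels, from 1.62 to 2.28 CPM in TXΔXicB6 and from 5.76 to 14.4 CPM in TXΔXicCast. Anxa1, an annexin that binds membranes, had 15.9, 15.5 and 16.5 CPM against 43.2, 44.3 and 82.1 CPM, a difference of 1.83 ± 0.31 (edgeR adjusted p = 0.00062). Cryab, a small heat-shock protein, and Frk, a Src-family kinase, were also among the 12 largest increases, by 1.92 ± 0.33 and 1.95 ± 0.29. All 12 remained called with any 1 library left out.

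In the same ranking the 12 largest autosomal decreases were led by Gfra1 and Trh. Of these, 2, Tuba3a and Myo7a, lie in segments of chromosomes 6 and 7 described below. Ptch1, the Hedgehog receptor and itself a Hedgehog target, had 221, 192 and 178 CPM in TXΔXicB6 and 109, 102 and 45.0 CPM in TXΔXicCast, a difference of -1.20 ± 0.22 (edgeR adjusted p = 0.0013). Trh, which encodes thyrotropin-releasing hormone, had 132, 146 and 190 CPM against 67.1, 38.2 and 56.1 CPM. It differed by -1.53 ± 0.31 (edgeR adjusted p = 0.0026). Car14, a membrane carbonic anhydrase, differed by -1.29 ± 0.23, from 27.2, 28.8 and 31.2 CPM to 12.7, 15.9 and 7.13 CPM. In these genes every TXΔXicCast library was below every TXΔXicB6 library, which was a condition of the ranking. Of the 12 largest decreases, 6 remained called with any 1 library left out. Gfra1, a GDNF co-receptor with the largest decrease of the 12 (-1.59 ± 0.35), lost its call without TXΔXicCast replicate 3 (edgeR adjusted p = 0.052), as did Sall3, Tuba3a, Egr1, Rnf165 and Ciart. Sall3 and Ciart also lost it without TXΔXicB6 replicate 2, Tuba3a without TXΔXicB6 replicate 1, Rnf165 without TXΔXicB6 replicate 3, and Egr1 without TXΔXicB6 replicate 1, TXΔXicB6 replicate 2 or TXΔXicCast replicate 2.

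**Figure D1:**
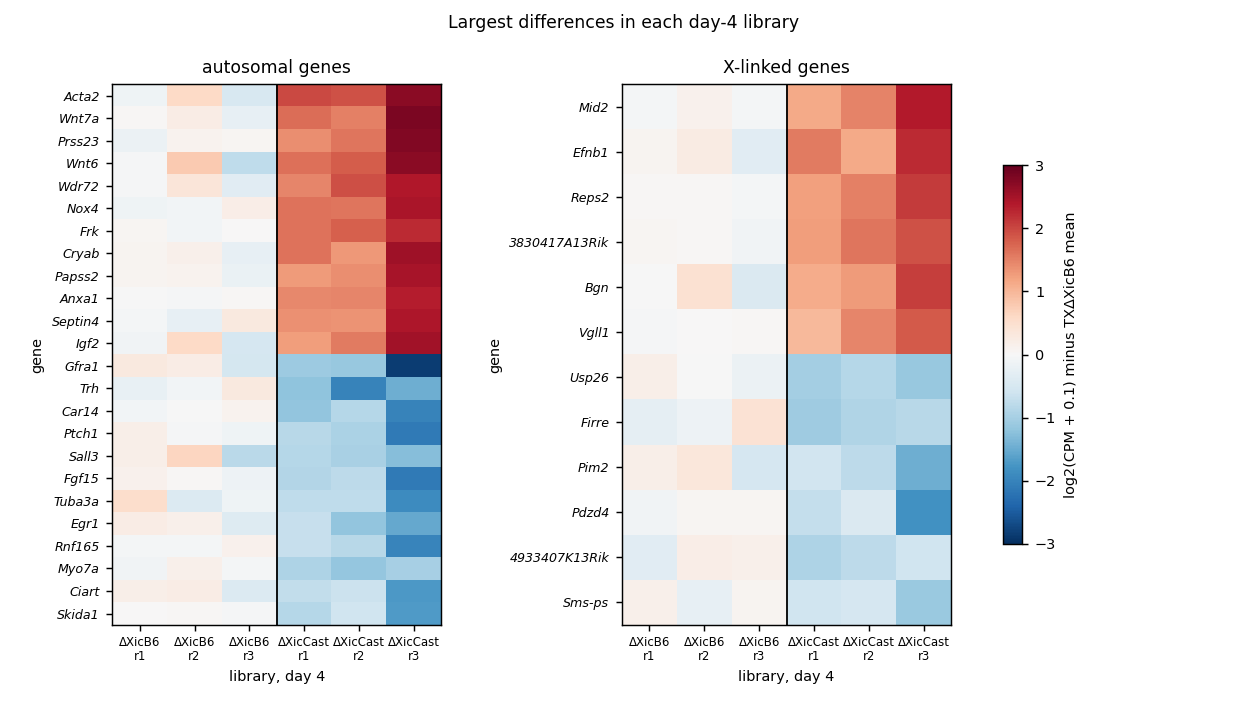
Largest differences between the lines in each day-4 library: the 12 largest autosomal increases and decreases (left) and the 6 largest X-linked ones (right) as log2(CPM + 0.1) minus the mean of the 3 TXΔXicB6 libraries, with red above and blue below that mean. Genes were taken from those called, without overlap of the libraries of the lines and with a mean of at least 100 normalized counts. TXΔXicCast replicate 3 has the deepest colour in most genes. Replicates 1 and 2 lie on the same side of 0, as the choice of genes without overlap requires.

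Of genes of smooth muscle and the actin cytoskeleton, 14 of 31 tested members were higher in TXΔXicCast and none was lower. The median was 0.41 over the list against -0.01 over all genes tested, and 28 members were above 0. For this list and those below, 4.01% of all genes tested were called higher and 1.85% lower. X-linked Flna, a filamin that cross-links actin, differed by 0.60 ± 0.11, with 1179, 1533 and 1288 CPM against 1859, 2085 and 2130 CPM. Tagln2, a transgelin, had 118, 117 and 107 CPM against 201, 204 and 217 CPM (0.86 ± 0.14), and Actn1, an alpha-actinin, had 231, 282 and 208 CPM against 368, 365 and 414 CPM (0.67 ± 0.13). Csrp1, a LIM protein of smooth muscle, had 175, 200 and 170 CPM against 328, 321 and 334 CPM (0.85 ± 0.17, edgeR adjusted p = 0.0025). In these 4 genes the lines were separated and TXΔXicCast replicate 3 lay near replicates 1 and 2. With any 1 library left out 6 members remained called, among them Acta2, Flna, Tagln2, Actn1 and Csrp1, and without TXΔXicCast replicate 3 no others were called. Without TXΔXicB6 replicate 1 or 3 or TXΔXicCast replicate 2 there were 6, 7 and 9 calls. The most abundant members without a call were the cytoplasmic actins, Actb at 0.24 (edgeR adjusted p = 0.24) and Actg1 at 0.01 (edgeR adjusted p = 0.98).

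Target genes of YAP and TEAD, the transcriptional arm of the Hippo pathway that responds to cell spreading, had 6 higher and 1 lower of 22, with a median of 0.32. F3, tissue factor, had 20.3, 22.4 and 16.3 CPM in TXΔXicB6 and 32.0, 32.7 and 50.7 CPM in TXΔXicCast (0.96 ± 0.16, edgeR adjusted p = 0.00052). Myof, a ferlin of the plasma membrane, had 16.4, 19.6 and 21.4 CPM against 32.5, 35.6 and 78.5 CPM (1.35 ± 0.24). Only F3 and Myof of this list were called without TXΔXicCast replicate 3, and 3 were called higher without TXΔXicB6 replicate 1 or 3. Among the members without a call, Ptpn14 stood at 0.27 and Ajuba at -0.09.

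Among adhesion and matrix genes most members were not called, and of those called all but 1 were higher in TXΔXicCast. Over all genes tested the share called higher was 4.01%. Integrins, the receptors that tie the cytoskeleton to the matrix, had 5 higher and 0 lower of 15 with a median of 0.26, and Itgav (alpha-V) had 55.2, 62.2 and 53.8 CPM against 114, 114 and 156 CPM, a difference of 1.16 ± 0.13 (edgeR adjusted p = 7.8e-06). Itgav lies in a chromosome 2 segment described below, and was the only integrin called without TXΔXicCast replicate 3. Without TXΔXicB6 replicate 1 or 3 there were 2 integrins called, and without TXΔXicCast replicate 1 or 2 there were 3. Of the genes of epithelial and mesenchymal adhesion 5 of 19 were higher. Krt8, a keratin of simple epithelia, had 324, 381 and 318 CPM against 755, 697 and 1210 CPM (1.38 ± 0.28, edgeR adjusted p = 0.0027), and Cldn4, a tight junction claudin, had 141, 122 and 131 CPM against 264, 207 and 319 CPM (1.00 ± 0.16). Krt8 and Cldn4 were the members of that list still called without TXΔXicCast replicate 3, and 3 members were called without TXΔXicB6 replicate 1 or 3 or TXΔXicCast replicate 2.

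Collagens had 7 of 25 higher, against 4.01% of all genes tested, and none lower, with a median of 0.29. Col5a2, of the fibril-regulating collagen V, had 10.2, 9.35 and 8.40 CPM in TXΔXicB6 and 21.9, 19.5 and 24.2 CPM in TXΔXicCast (1.23 ± 0.22, edgeR adjusted p = 0.0012). Basement membrane genes had 4 of 15 higher and 0 lower, among them Sparc, a matrix protein that binds collagen, with 246, 275 and 206 CPM against 349, 362 and 427 CPM (0.65 ± 0.11, edgeR adjusted p = 0.00065). Interstitial matrix and remodelling genes had 4 higher and 1 lower (Fbn2) of 34. Fbn2 lost its call without TXΔXicB6 replicate 2 or TXΔXicCast replicate 3. X-linked Bgn, the proteoglycan biglycan, had 1.93, 2.72 and 1.43 CPM against 4.33, 4.89 and 8.54 CPM (1.53 ± 0.29, edgeR adjusted p = 0.0015). Fn1, the fibronectin gene, did not pass at 0.47 (edgeR adjusted p = 0.18). Without TXΔXicCast replicate 3 each of these 3 lists kept 2 higher members, among them Col1a2, Col5a2, Sparc, Nid1 and Bgn, and 3 collagens were called without TXΔXicB6 replicate 1.

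**Figure D2:**
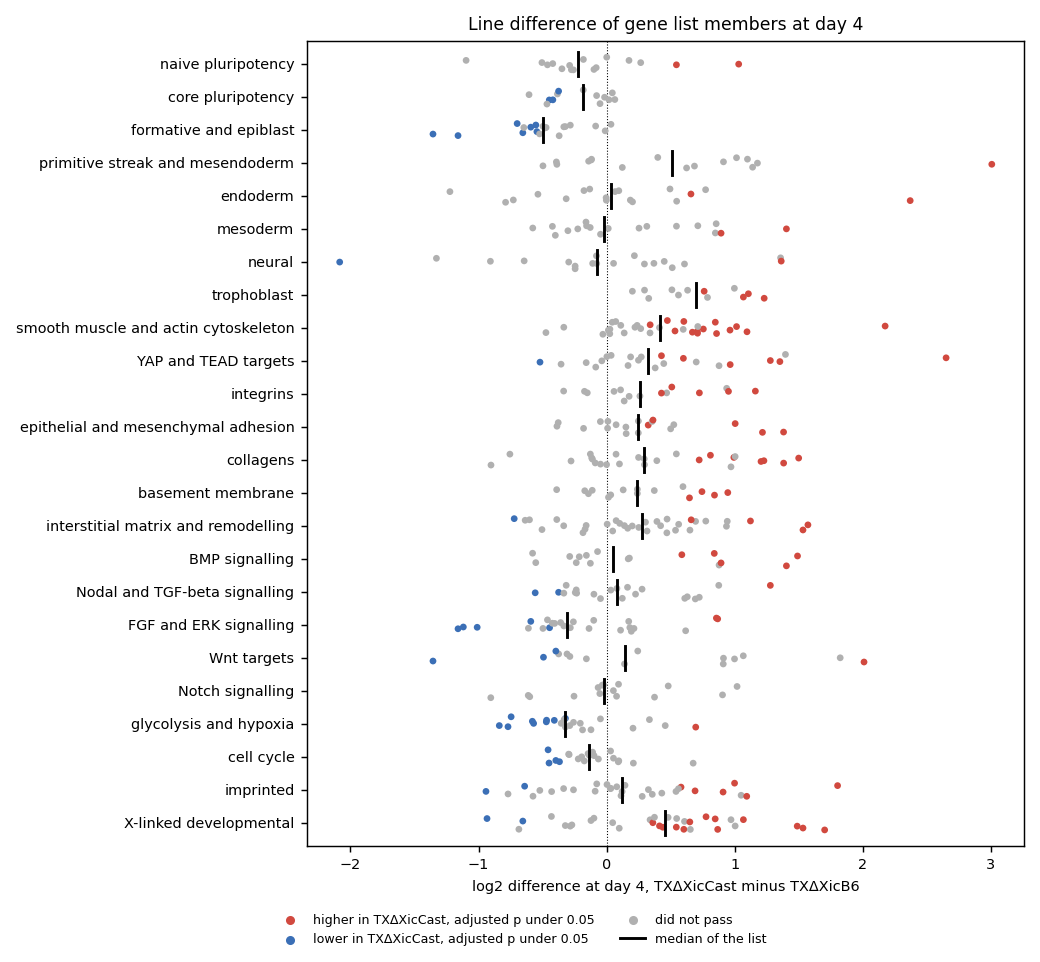
Log2 difference at day 4 (TXΔXicCast minus TXΔXicB6) of each tested member of 24 gene lists, red where called higher, blue where called lower and grey where not called, with a bar at the list's median. The actin list has 14 red points and no blue one, the formative and epiblast list 7 blue points and no red one.

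Of genes of the formative and epiblast state, 7 of 19 members were called lower in TXΔXicCast, none was higher and 12 were not called, and the median was -0.50 with 1 member above 0. Fgf15, an FGF ligand of the early epiblast and neural plate, had 39.5, 36.8 and 32.2 CPM in TXΔXicB6 and 19.6, 20.8 and 8.15 CPM in TXΔXicCast (-1.16 ± 0.24, edgeR adjusted p = 0.0034). Etv4, an ETS factor downstream of FGF, had 41.0, 45.6 and 37.5 CPM against 28.5, 27.7 and 26.2 CPM (-0.59 ± 0.13, edgeR adjusted p = 0.0048). Dnmt3b, the de novo DNA methyltransferase of the epiblast, had 954, 1106 and 783 CPM against 626, 756 and 370 CPM (-0.70 ± 0.17, edgeR adjusted p = 0.012). Otx2, an epiblast transcription factor, differed by -0.54 ± 0.13. Fgf15 and Etv4 remained called without TXΔXicCast replicate 3, while Dnmt3b (edgeR adjusted p = 0.14) and Otx2 (edgeR adjusted p = 0.16) did not, although the libraries of the lines do not overlap in either gene. Dnmt3b also lost its call without TXΔXicB6 replicate 2 and Otx2 without TXΔXicB6 replicate 1, and 3 members of the list were called without either of these libraries. With the day-4 libraries fitted alone 1 member was called, and Fgf15 was not (edgeR adjusted p = 0.06). With the replicate number as a block 10 members were called lower. Otx2 was also allele dependent by the test described below (edgeR adjusted p = 0.016).

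Core pluripotency genes had 3 of 13 lower and none higher, with a median of -0.18, or -0.05 without TXΔXicCast replicate 3. The count was 0 without TXΔXicB6 replicate 1 and with the day-4 libraries alone, 1 without TXΔXicCast replicate 3 and 5 without TXΔXicCast replicate 1. Pou5f1 (Oct4) stood at 685, 647 and 714 CPM in TXΔXicB6 and at 530, 559 and 411 CPM in TXΔXicCast (-0.45 ± 0.11, edgeR adjusted p = 0.016), and its call was lost without TXΔXicCast replicate 3 (edgeR adjusted p = 0.21), TXΔXicB6 replicate 1 or TXΔXicB6 replicate 3. Naive pluripotency genes had 2 of 16 higher, Tbx3 and Tfcp2l1, and none lower, and both calls were lost without TXΔXicCast replicate 3 or any of the TXΔXicB6 libraries. Tfcp2l1 lost its call without any 1 of the 6 libraries and was allele dependent (edgeR adjusted p = 2.3e-05). Nanog, in the chromosome 6 segment described below, did not pass at -0.26 (edgeR adjusted p = 0.28).

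Markers of germ layers gave few calls, where 4.01% of all genes tested were called higher and 1.85% lower. Endoderm genes had 2 of 18 higher, mesoderm genes 2 of 18 higher, neural genes 1 higher and 1 lower of 19, and primitive streak and mesendoderm genes 1 of 16 higher, and none of these 7 calls was made without TXΔXicCast replicate 3, while Foxa2, a mesendoderm factor, was then called lower. The mesendoderm list had 5 higher members without TXΔXicCast replicate 2, 3 without TXΔXicCast replicate 1 and 0 without TXΔXicB6 replicate 1. Lhx1, a mesendoderm factor, had 0.248, 0.605 and 0.424 CPM in TXΔXicB6 and 0.332, 0.567 and 9.38 CPM in TXΔXicCast, so its difference of 3.01 came from that library. Gata6, an endoderm factor, likewise had 0.571, 0.437 and 3.06 CPM in TXΔXicCast against 0.154 to 0.357 CPM in TXΔXicB6. The median of the mesendoderm list was 0.51 with that library and -0.44 without it. Summed over the list, mesendoderm genes reached 559 CPM in TXΔXicCast replicate 3, and between 272 and 422 CPM in the other 5 libraries. The part of mesendoderm-like cells in the other differences of that library was not tested.

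Trophoblast genes had 4 of 12 higher, against 4.01% of all genes tested, and all 12 above 0, with a median of 0.70. The called members were Krt7, Krt19, Gata3 and X-linked Plac1, of which the keratins also mark simple epithelia. Krt7 had 24.6, 24.5 and 26.5 CPM in TXΔXicB6 and 50.3, 50.2 and 76.6 CPM in TXΔXicCast (1.23 ± 0.25, edgeR adjusted p = 0.0026), and was the member called without TXΔXicCast replicate 3, TXΔXicB6 replicate 1 or TXΔXicB6 replicate 3, with 2 called without TXΔXicB6 replicate 2. The placental genes Prl3d1 and Tpbpa were at 0 counts in all 6 libraries. As a check for other cell types, the 12 fibroblast markers summed to 37.5, 42.6 and 37.1 CPM in TXΔXicB6 and 43.0, 41.1 and 52.4 CPM in TXΔXicCast, led by Thy1 with 23.2% of the sum and with none at 0. Of 9 tested, Col1a1, Col1a2 and Pdgfrb were called higher, of which Col1a2 was the member called without TXΔXicCast replicate 3. The 12 markers of endothelium and blood summed to 36.7, 32.1 and 37.0 CPM and to 31.7, 30.9 and 20.3 CPM, led by Pecam1 with 56.3%, with Hbb-bh1 at 0 and Cd34 called lower of 10 tested, a call lost without TXΔXicCast replicate 3 or TXΔXicB6 replicate 1. The part of these cells in the matrix differences was not tested.

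Calls among all genes tested were 1.85% lower and 4.01% higher. Among signalling genes, those of FGF and ERK had 5 lower and 2 higher of 24, with a median of -0.31. The lower ones were Fgf15, Etv4, the immediate early gene Egr1 and the feedback inhibitors Spry4 and Spry2, and the higher ones were Ier3 and X-linked Dusp9, an ERK phosphatase. Dusp9 had 328, 305 and 239 CPM in TXΔXicB6 and 541, 459 and 592 CPM in TXΔXicCast (0.87 ± 0.16, edgeR adjusted p = 0.0014). Fgf15, Etv4 and Dusp9 remained called with any 1 library left out, and 2 members were called lower without TXΔXicB6 replicate 1 or 2, and 3 without TXΔXicCast replicate 2. BMP genes had 5 of 16 higher, the ligands Bmp4 and Bmp7, the antagonist Nog and the targets Id2 and Msx2, and none was called without TXΔXicCast replicate 3, 1 without TXΔXicB6 replicate 3 and 3 without TXΔXicB6 replicate 1 or 2. The list of Wnt targets had 1 higher of 15, Wnt6, which is itself a Wnt ligand, and 3 lower, Lef1, Fzd7 and Ccnd1. Nodal and TGF-beta genes had 1 higher (Tgfb2) and 2 lower (Tdgf1 and Gdf3, the latter in the chromosome 6 segment) of 21, and Notch genes had 0 calls of 15. Without TXΔXicCast replicate 3, Wnt6 of the Wnt list and Tdgf1 of the Nodal list were the members called, and the median of the Wnt list was 0.14 with that library and -0.10 without it. Without TXΔXicB6 replicate 1 or 2 no Wnt target was called lower, and without TXΔXicCast replicate 2 there were 1 lower and 4 higher. Without TXΔXicB6 replicate 1 none of the Nodal list was called. Other lists gave few calls: targets of LIF and STAT3 had 1 higher (Tfcp2l1) of 11, genes of p53 and stress 1 higher (Mdm2) of 15, germline genes 1 lower (Tuba3a, in the chromosome 6 segment) of 16, and genes of retinoic acid and Hox 1 higher (Hoxb9) and 1 lower (Stra6) of 20. Of these, Hoxb9 was called without TXΔXicCast replicate 3.

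Genes known to be imprinted are expressed from 1 parental copy in most tissues. They had 6 higher and 2 lower of 30, against 4.01% and 1.85% of all genes tested. Higher members were 5 to 7 with any 1 library left out, and lower members were 5 without TXΔXicCast replicate 2 and 1 without TXΔXicCast replicate 3, TXΔXicB6 replicate 1 or TXΔXicB6 replicate 2. Peg10, a retrotransposon-derived gene, had 1595, 1827 and 1262 CPM in TXΔXicB6 and 2980, 2641 and 4377 CPM in TXΔXicCast (1.09 ± 0.17, edgeR adjusted p = 0.00031). Igf2, a fetal growth factor, had 15.5, 25.3 and 11.7 CPM against 39.6, 49.0 and 95.3 CPM (1.80 ± 0.29). Peg3, a zinc finger gene, had 962, 1163 and 1081 CPM against 1639, 1897 and 2486 CPM (0.91 ± 0.13, edgeR adjusted p = 8.4e-05). The share of allele-specific Peg10 counts on B6 was 40.8%, 41.0% and 41.4% in TXΔXicB6 and 41.2%, 41.1% and 41.4% in TXΔXicCast. Both alleles thus contributed to the Peg10 counts in both lines. Igf2, Peg10, Peg3, Usp29 and Slc38a4 remained higher and Magel2 remained lower with any 1 library left out. H19, next to Igf2, did not pass at 1.05 (edgeR adjusted p = 0.12).

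**Figure D3:**
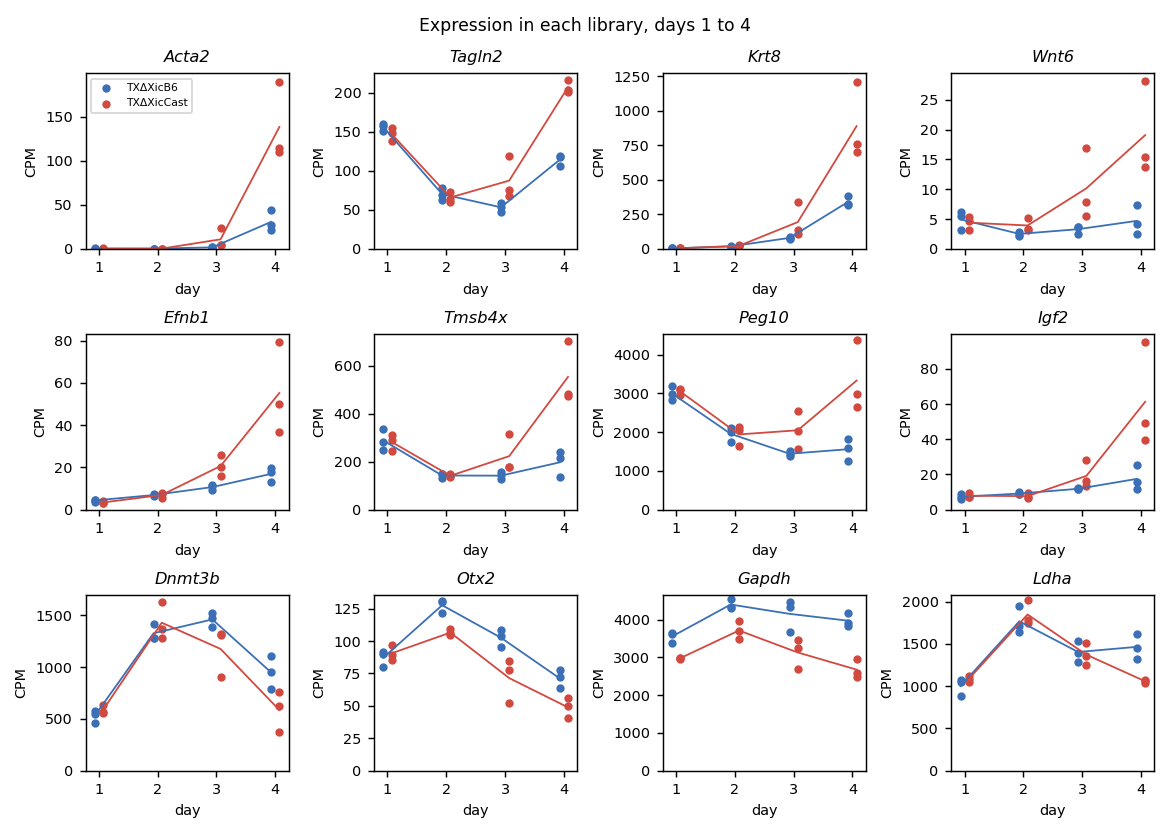
CPM of 12 genes in each library at days 1 to 4 of differentiation, TXΔXicB6 in blue and TXΔXicCast in red, with lines through the means of 3 replicates. The lines lie close together at days 1 and 2 for most of the genes and separate at days 3 and 4, while Gapdh is lower in TXΔXicCast from day 1.

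Of genes of glycolysis and the hypoxia response, 9 of 22 were called lower in TXΔXicCast, 1 was higher and 12 were not called, with a median of -0.32. Bnip3, a mitophagy receptor induced by hypoxia, had 39.9, 32.7 and 41.8 CPM in TXΔXicB6 and 21.9, 19.6 and 25.4 CPM in TXΔXicCast (-0.77 ± 0.15, edgeR adjusted p = 0.0021). Pdk1, a pyruvate dehydrogenase kinase, had 106, 91.3 and 106 CPM against 80.9, 69.8 and 68.1 CPM (-0.47 ± 0.10, edgeR adjusted p = 0.0033). Ldha, lactate dehydrogenase, had 1454, 1321 and 1622 CPM against 1071, 1065 and 1035 CPM (-0.47 ± 0.11), and was also allele dependent (edgeR adjusted p = 0.00019). Gapdh and Tpi1, both glycolytic enzymes, differed by -0.57 ± 0.10 and -0.75 ± 0.15, and lie in a segment of chromosome 6 described below. Bnip3, Pdk1, Gapdh and Tpi1 remained called with any 1 library left out, and Ldha lost its call without TXΔXicCast replicate 3 (edgeR adjusted p = 0.063) or TXΔXicB6 replicate 3 (edgeR adjusted p = 0.079). The list had 4 lower members without either of these libraries, and 5 with the day-4 libraries fitted alone. Outside the segments, 7 of 19 were lower and 1, Ndrg1, was higher. Ndrg1 lost its call without TXΔXicCast replicate 3 or any of the TXΔXicB6 libraries. Cell cycle genes had 4 of 20 lower (Ccne1, Ccnd1, Mcm2 and, in the chromosome 6 segment, Cdkn1b) and none higher. None was called without TXΔXicCast replicate 3 or TXΔXicB6 replicate 1, 1 lower member without TXΔXicB6 replicate 2, and 1 lower and 1 higher without TXΔXicCast replicate 2.

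The core letters of the hypoxia response element, ACGTG on either strand, were looked for in RefSeq promoters (GRCm38.p6) that reach from 250 bases before to 50 bases after a start. They were in 14 of the 20 glycolysis and hypoxia genes with a promoter, in 6 of the 9 called lower and in 8 of the 11 not called; this counts a gene if any of its windows has a match. Counted in the same way they were in 21.8% of all 27025 genes. The promoters of Bnip3 and Ldha are shown because they hold the motif and their genes were called lower and lie outside the segments. The second window of Ldha and both windows of Pdk1, also called lower and outside the segments, have 0 matches. The motif is in capitals, and a palindromic CACGTG counts on both strands. The Bnip3 window is chr7:138909457-138909756 on the minus strand with 2 matches, and the Ldha window is chr7:46845554-46845853 on the plus strand with 5.
Bnip3: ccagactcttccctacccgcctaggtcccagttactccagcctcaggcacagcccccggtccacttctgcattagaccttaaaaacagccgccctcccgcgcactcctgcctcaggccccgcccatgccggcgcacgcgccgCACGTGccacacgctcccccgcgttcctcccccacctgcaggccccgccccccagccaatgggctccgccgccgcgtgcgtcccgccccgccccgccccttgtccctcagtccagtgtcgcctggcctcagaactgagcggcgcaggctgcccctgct
Ldha: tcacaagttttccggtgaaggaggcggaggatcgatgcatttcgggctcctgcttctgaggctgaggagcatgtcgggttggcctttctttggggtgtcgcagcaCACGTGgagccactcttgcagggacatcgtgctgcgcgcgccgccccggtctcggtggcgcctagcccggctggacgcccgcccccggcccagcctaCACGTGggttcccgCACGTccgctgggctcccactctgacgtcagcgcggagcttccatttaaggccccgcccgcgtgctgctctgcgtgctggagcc

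The CArG box, the site of serum response factor, was searched with no departure from its consensus allowed. It was in 7 of 28 actin-list promoters, all 7 in the 16 without a call and 0 in the 12 called higher. It was in 1.81% of all genes counted in that way. The Acta2 window holds ccctatatgg and ccttgtttgg, which each depart from the consensus by 1 base and were not counted. A count of 0 thus does not show that such sites are absent. GGAATG, the TEAD site, was in 8 of 15 promoters of the YAP and TEAD list, 1 of 5 called higher among them, and in 16.6% of all genes. A match in these windows is a description of letters and not of a bound site.

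X-linked genes were called higher more often than autosomal genes, 14.9% against 3.6%, and lower about as often, 1.89% against 1.84%. Without TXΔXicCast replicate 3, 48 X-linked genes were higher and 6 lower of 740, and 198 autosomal genes were higher and 72 lower of 19092. Efnb1 (chrX:99136130-99148991), which encodes the guidance ligand ephrin-B1, had 17.7, 19.9 and 13.3 CPM in TXΔXicB6 and 49.8, 36.6 and 79.3 CPM in TXΔXicCast. It differed by 1.70 ± 0.20 (edgeR adjusted p = 1.6e-05). Tmsb4x, thymosin beta-4, which sequesters actin monomers, had 243, 135 and 214 CPM against 484, 474 and 704 CPM (1.49 ± 0.19, edgeR adjusted p = 4.3e-05). Mid2, a microtubule-associated ubiquitin ligase, had 2.33, 2.67 and 2.31 CPM against 5.48, 7.03 and 13.0 CPM (1.80 ± 0.32). In all 3 genes the lowest TXΔXicCast library was above the highest TXΔXicB6 library. For Efnb1 and Mid2, named as largest increases, this was a condition of the choice.

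Among X-linked decreases without overlap and with a mean of at least 100 normalised counts, Usp26 and Firre were the largest. Usp26, a deubiquitinase, had 19.4, 17.1 and 15.3 CPM against 8.39, 9.47 and 7.76 CPM (-1.02 ± 0.16, edgeR adjusted p = 0.0003). Firre (chrX:50555744-50635321), a long noncoding RNA, had 120, 130 and 195 CPM against 68.9, 78.0 and 81.5 CPM (-0.96 ± 0.20, edgeR adjusted p = 0.003). Pim2, a kinase and LIF target, differed by -0.93 ± 0.22 and lost its call without TXΔXicCast replicate 3, TXΔXicB6 replicate 1 or TXΔXicB6 replicate 2. Over all X-linked genes tested outside the deleted region, 14.9% were higher and 1.89% lower. Of the X-linked developmental genes, 13 of 32 were higher and 2 lower, with a median of 0.46. Efnb1, Tmsb4x, Bex3, Flna, Dusp9 and Bgn remained called with any 1 library left out. Without TXΔXicCast replicate 3 the list had 7 higher and 0 lower members and a median of 0.28. Its lower calls were also lost without TXΔXicB6 replicate 1 or 2. Genes known to escape X inactivation had 1 higher (Bgn) of 12 and a median of 0.00, with Ddx3x and Kdm5c both at 0.00.

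Xist itself had 392, 608 and 556 CPM in TXΔXicB6 and 267, 404 and 339 CPM in TXΔXicCast, and this difference of -0.62 ± 0.30 did not pass (edgeR adjusted p = 0.25), and the libraries of the lines overlap. The strand used in counting is not given in the sources used here, so reads of Xist and of its antisense partner Tsix may be mixed. Of the 16 tested genes of the deleted region, which are present on 1 chromosome in each line, Cdx4 was lower (-2.89 ± 0.40) at 0.935 to 1.19 CPM in TXΔXicB6 and 0.0300 to 0.218 CPM in TXΔXicCast, and Tsx was higher (1.47 ± 0.36) at under 1 CPM throughout. Tsx lost its call without TXΔXicB6 replicate 1 or 2 or TXΔXicCast replicate 2.

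**Figure D4:**
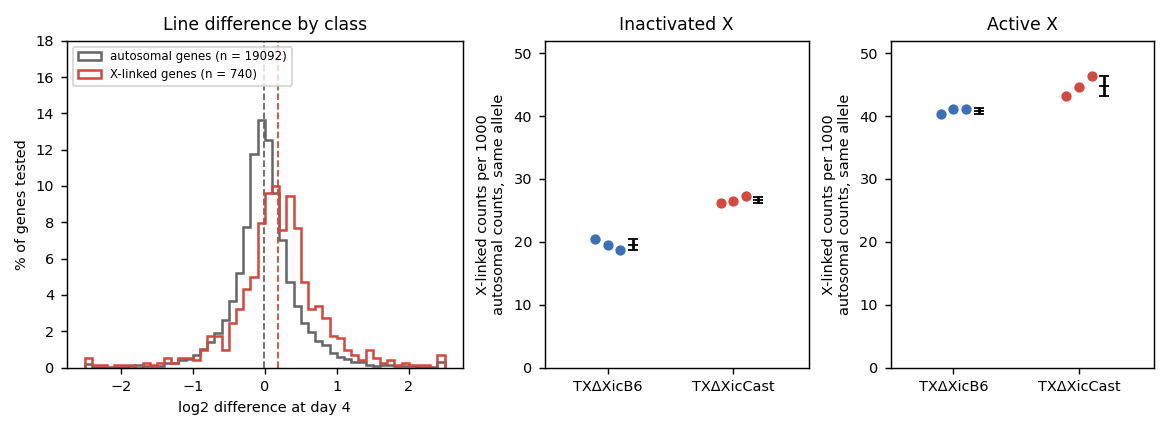
Left, log2 differences at day 4 as a share of the genes tested in each class, in steps of 0.1, with values beyond 2.5 placed in the outermost steps and dashed lines at the medians of -0.01 (autosomal) and 0.18 (X-linked). Middle and right, X-linked counts per 1000 autosomal counts of the same allele in each library with mean and SD (n = 3), for the X that can be inactivated and for the other X.

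Allele-specific counts were compared for each X. The X that could be inactivated (B6 in TXΔXicCast, Cast in TXΔXicB6) gave 26.3, 26.4 and 27.2 counts per 1000 autosomal counts of the same allele in TXΔXicCast, and 20.5, 19.5 and 18.7 in TXΔXicB6. The ratio of the means was 1.36 (exact two-sided permutation p = 0.1, the smallest that 3 against 3 can give). The other, active X gave 43.2, 44.7 and 46.4 against 40.3, 41.1 and 41.1, a ratio of 1.10 (exact permutation p = 0.1). Both levels were higher in every TXΔXicCast library than in any TXΔXicB6 library. In undifferentiated TX1072 cells the same measure was 29.9 for B6 and 30.2 for Cast. Since the lines silence different alleles, the effect of silencing and that of the strain of the allele cannot be told apart.

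Over the 443 X-linked genes with enough allele-specific counts (at least 100 summed over both lines), the median log2 difference was 0.52 on the X that could be inactivated and 0.08 on the active X. The 94 of these genes that were called higher had medians of 0.90 and 0.55, and the 12 called lower had 0.24 and -0.95. For a single gene these values set alleles of different strains against each other, so the X on which it differed was not resolved. Tmsb4x, with 44 to 232 allele-specific counts per allele and line, differed by 2.15 on the X that could be inactivated and by 0.08 on the active X, but within a strain by -0.08 for the B6 allele and by 2.30 for the Cast allele. Flna differed by 1.07 and 0.38, and within a strain by -0.37 and 1.82. Efnb1 was above 0 in both ways, at 1.49 and 1.62 and, within a strain, at 0.71 and 2.40. Firre differed by 2.06 and -1.74, and within a strain by -1.78 and 2.10, and its counts were skewed to B6 in TXΔXicB6. B6 held 93.6%, 94.2% and 93.3% of its allele-specific counts in TXΔXicB6, and 50.9%, 50.8% and 48.8% in TXΔXicCast.

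Most differences at day 4 had the same sign at day 3. At day 3, 176 genes were higher and 75 lower (0.885% and 0.377% of the genes tested), against 46 and 34 at day 1 (0.231% and 0.171%) and 39 and 35 at day 2 (0.196% and 0.176%). Of the 798 genes higher at day 4, 762 (95.5%) were above 0 at day 3, against 47.6% of all genes, and 141 (17.7%) were called higher there. The share above 0 was 72.7% at day 2 and 54.5% at day 1. Of the 367 lower genes, 355 (96.7%) were below 0 at day 3, against 52.3% of all genes, and 57 were called lower. The share below 0 was 79.6% at day 2 and 67.6% at day 1. Acta2 differed by 2.76 at day 3 (edgeR adjusted p = 0.0017), Tagln2 by 0.72 (edgeR adjusted p = 0.0078) and Krt8 by 1.30 (edgeR adjusted p = 0.014). Ptch1 already differed by -1.06 (edgeR adjusted p = 0.011). TXΔXicCast replicate 3 stood apart at day 3 too, with Acta2 at 4.69, 4.22 and 23.4 CPM, Krt8 at 133, 110 and 338 CPM and Tagln2 at 74.8, 68.0 and 119 CPM in TXΔXicCast. Without that day-3 library 49 genes were called at day 3, and none of these 4 genes passed. Acta2 then stood at 1.47 (edgeR adjusted p = 0.051), Tagln2 at 0.43 (edgeR adjusted p = 0.19), Krt8 at 0.62 (edgeR adjusted p = 0.5) and Ptch1 at -0.80 (edgeR adjusted p = 0.16). The count was 131, 71 and 132 without day-3 replicate 1, 2 or 3 of TXΔXicB6. Krt8 also lost its call without replicate 1 or 2 of TXΔXicB6, and Tagln2 and Ptch1 without replicate 2. Of other genes named above that did not pass at day 3, Dnmt3b stood at -0.31 (edgeR adjusted p = 0.56), Peg10 at 0.51 (edgeR adjusted p = 0.19), F3 at 0.11 (edgeR adjusted p = 0.92) and Ldha at -0.03 (edgeR adjusted p = 0.97). In the test of the change from day 3 to day 4, edgeR called 0 genes (0.0%), DESeq2 4, and 660 had an unadjusted p under 0.05. Libraries of TXΔXicCast at day 0 had been fragmented differently because of RNA degradation, and 3929 genes (19.8%) were called there, so day 0 is not used as a baseline.

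The difference between the lines changed between day 1 and day 4 in 149 genes, upwards in 130 and downwards in 19 (0.654% and 0.0955% of the genes tested). Autosomal genes were 108 and 18 of these (0.566% and 0.0943%), and X-linked genes 22 and 0 (2.97% and 0.0%). The X-linked ones included Efnb1 (2.05 ± 0.31, edgeR adjusted p = 0.0019) and Tmsb4x (1.52 ± 0.27, edgeR adjusted p = 0.0074), and the autosomal ones Wnt7a (3.07 ± 0.70, edgeR adjusted p = 0.034), Cryab and Wnt6. The count was 24 without TXΔXicCast replicate 3 of day 4, 54, 83 and 45 without TXΔXicB6 replicates 1, 2 and 3 of that day, and 255 with the replicate block.

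Part of the autosomal difference lay in 6 chromosome segments in which the share of B6 among allele-specific counts differed between the lines. These are runs of at least 7 neighbouring genes that shared a shift, and they hold 366 tested genes, on chromosome 2 (chr2:3114224-4910557 and chr2:76675281-83883486), chromosome 6 (chr6:119902698-148946467), chromosome 7 (chr7:87246096-90476001 and chr7:96951505-98718062) and chromosome 13 (chr13:89655312-93405129). The segments were chosen by the B6:Cast ratio in these libraries, so their shares and allele calls are given as a description. Inside them 30.3% of the genes were called at day 4, against 4.96% of the autosomal genes outside. In 5 of the 6 segments all calls had 1 direction: 8, 12, 13 and 12 genes were higher and none lower in the segments from Fam171a1 to Sephs1, Plekha3 to Fam171b, Nox4 to Tmem126b and Vcan to Homer1, and 15 were lower and none higher from Nars2 to Thap12. The segment of chromosome 6, from Rad52 to Sinhcaf, had 47 lower and 4 higher. Medians over all tested genes of the segments were 0.56, 0.60, 0.68 and 0.69 in the first 4 named, -0.71 in the fifth and -0.32 in that of chromosome 6.

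**Figure D5:**
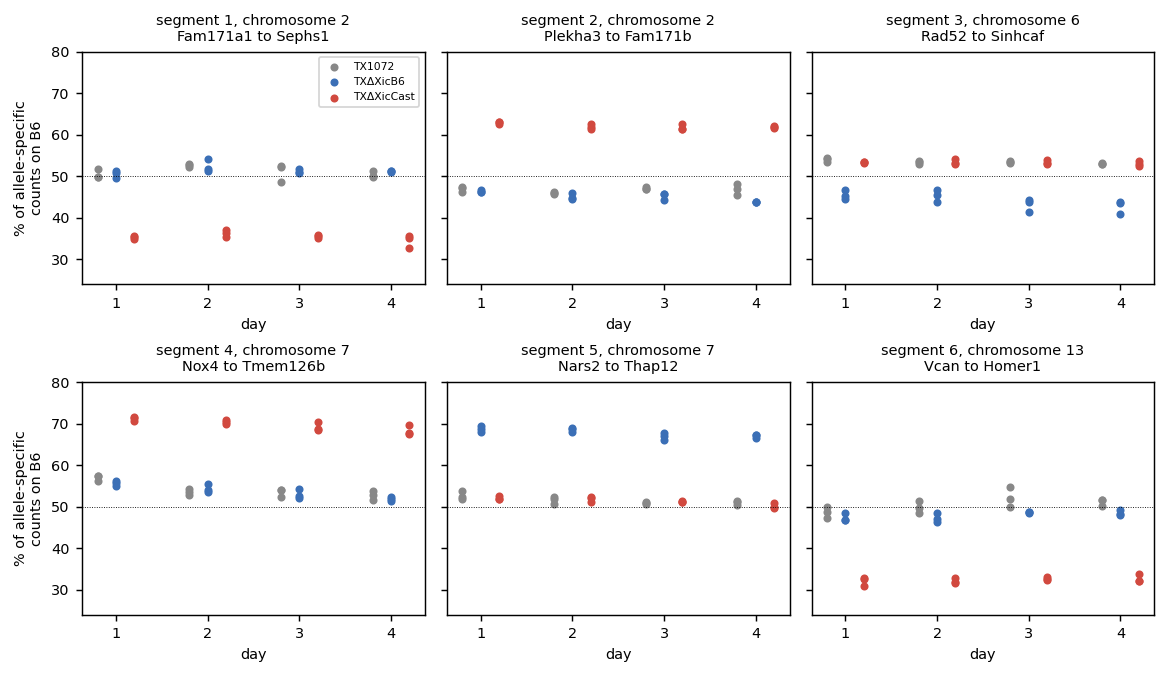
Share of allele-specific counts assigned to B6, in percent, in each of the 6 segments and each library at days 1 to 4, for TX1072 (grey), TXΔXicB6 (blue) and TXΔXicCast (red), with a dotted line at 50%. In 4 segments the TXΔXicCast points, and in 2 the TXΔXicB6 points, lie apart from the other lines on every day.

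Shares of B6 differed between the lines on each of days 1 to 4. In the chromosome 6 segment B6 held 43.9%, 43.5% and 41.0% in TXΔXicB6 at day 4. In the chromosome 2 segment with Itgav, B6 held 43.9%, 43.9% and 43.9% in the TXΔXicB6 libraries of day 4 and 62.0%, 61.6% and 62.1% in those of TXΔXicCast, and 45.4% to 48.3% in the 15 TX1072 libraries. In the segment from Nars2 to Thap12 it held 67.3%, 67.2% and 66.6% in TXΔXicB6, 50.8%, 49.9% and 49.7% in TXΔXicCast and 50.5% to 53.9% in TX1072. In the 4 segments where TXΔXicCast departed from TX1072 it had the higher level, and in the 2 where TXΔXicB6 departed that line had the higher level. The study checked the karyotype of the clones on metaphase spreads. The copy number of these segments in the sequenced cells was not tested here.

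Allele dependence was also tested gene by gene, as the difference between the lines of the B6:Cast ratio of autosomal genes. It was called in 208 of 14739 autosomal genes (1.41%), 133 of them inside the segments (49.3% of those tested there) and 75 outside (0.518%). Of the 979 autosomal genes called at day 4 that could be tested, 101 were allele dependent, and 82 of these were in the segments. Clns1a, a spliceosome assembly factor, shows the pattern: 239, 200 and 207 CPM in TXΔXicB6 against 121, 129 and 110 CPM in TXΔXicCast, with 68.1%, 65.9% and 67.0% of allele-specific counts on B6 in the first and 48.8%, 51.8% and 49.9% in the second. Most called genes outside the segments had no such call, among them Acta2 (edgeR adjusted p = 0.75) and Peg10 (edgeR adjusted p = 1). Without the segments, 749 genes were higher and 305 lower, or 213 and 38 if TXΔXicCast replicate 3 was also left out. With all 6 libraries, the actin, YAP, collagen, trophoblast and formative lists lost no called member. Integrins then kept 4 of 5, and glycolysis and hypoxia genes 7 of 9 lower members.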

How the data were processed

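The authors aligned paired-end reads (100 bases) of rRNA-depleted RNA with STAR 2.5.2b to mm10, masked at B6 and Cast SNPs, counted uniquely aligned reads over exons with featureCounts, assigned alleles with SNPsplit and deposited raw counts per gene, in all and per allele. Counts were tested with edgeR 4.0.16 in R 4.3.3 by its two-sided quasi-likelihood test without a block, after TMM scaling and filterByExpr, with p adjusted over 19885 genes (Benjamini-Hochberg), and with DESeq2 1.42.0 as an alternative. No label states the strand used in counting. Allele dependence used 60 columns with a term per library. The replicates were differentiated on separate days, but no label names separate animals, so that p-values measure the spread between cultures of 1 clone. Deviations of same-numbered day-4 libraries correlated at 0.05 to 0.32, and others at -0.34 to 0.09. On simulated counts edgeR recovered 87 of 100 genes changed by 1 log2 unit and 100 of 100 changed by 2. Of its calls 5.56% were false (11.6% with DESeq2). The allele test recovered 18 of 100 at 0.6 log2 units and 72 of 100 at 1. The simulated line differences had no effect of day or replicate and no library that stood apart. The share of false calls among the real calls was thus not measured.

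The genes named are the 12 largest autosomal and 6 largest X-linked increases and decreases (called, without overlap, mean of at least 100 normalized counts), up to 5 called and 2 uncalled members of each of 32 lists, the deleted region, and the 5 smallest p of allele dependence. Members named as kept without a library, Csrp1, and the genes in the figures or counts beyond these were chosen after their values were seen, as were the segments. Members and lists were chosen with earlier results of these data known. Alternatives were other tools, scaling, filters, samples and blocks, and each library left out. No per-sample column was left unmapped. Some genes that the rule selects are not reported here.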

Additional observations from a re-analysis of the deposited data

Results flagged for a closer look

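The difference between the lines was not the same at day 1 and day 4 in 149 genes by the test of that change (edgeR, adjusted p under 0.05): it became more positive in 108 autosomal and 22 X-linked genes, and more negative in 18 autosomal and 0 X-linked genes (X-linked at an unadjusted p under 0.05: 171 in both directions; DESeq2: 45 more positive and 2 more negative). The cause was not tested.

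The B6:Cast ratio of 4 autosomal genes, among those with the smallest adjusted p of allele dependence among the genes called at day 4, differed between the lines. The log2 ratio in TXΔXicCast minus that in TXΔXicB6 was -1.08 ± 0.07 in Ints4, -0.98 ± 0.07 in Rsf1 and -1.03 ± 0.07 in Clns1a, neighbours in the segment of chromosome 7 from Nars2 to Thap12. It was 0.98 ± 0.07 in Picalm, in the other segment of chromosome 7 (SE, n = 3 against 3). In these genes the line whose share departed from TX1072 also had the higher total expression.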

How the results depend on the processing

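No gene that was named and called changed direction under any alternative run, while counts of calls moved. The runs share most of the libraries by which these genes were called, so a change of direction was unlikely beforehand. Without TXΔXicCast replicate 3 the list medians for mesendoderm (to -0.44), Wnt (-0.10), neural (0.12), mesoderm (0.06), Notch (0.04), Nodal and TGF-beta (-0.03) and LIF (0.03) changed sign. Fitting the 6 day-4 libraries alone gave 501 calls (435 autosomal, 65 X-linked), and the replicate block gave 1772 (1604 autosomal). With that block, lower members numbered 10 in the formative list, 5 in core and 1 in naive pluripotency, and 7 in FGF and ERK. With 1 library left out, calls ranged from 326 to 1232 (autosomal 270 to 1121, X-linked 54 to 124), and were lowest without TXΔXicCast replicate 3. The change from day 3 to day 4 had 0 calls with the block and with any 1 day-4 library left out, 4 with DESeq2 and 28 without a filter on low counts. The change from day 1 to day 4 had 355 calls with DESeq2, 412 without the filter, 255 with the block, and 24 to 190 with 1 library left out. Allele dependence had 168 to 228 calls with 1 library left out, and 75 without the genes of the segments, an alternative chosen after seeing the data. Day 3 had 251 calls and 49 to 321 with 1 day-3 library left out (also chosen after seeing the data), fewest without TXΔXicCast replicate 3. DESeq2 in place of edgeR called 1062 genes higher and 561 lower at day 4. The causes were not tested. Genes near 1 CPM rest on few counts, and a missing call at this depth does not show that the lines are alike.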
